A study of Mus musculus with 2 samples.

Results

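Gpha2 and Gphb5 encode the alpha and the beta subunit of thyrostimulin, and their RNA was followed in sorted cycling cells of the mouse corneal epithelium. Both genes, 2 of the 31053 in the deposited matrix, were chosen by name and not by a value. Their UMIs (unique molecular identifiers, 1 per RNA molecule caught) were read in every barcode that passed 2 filters, 500 or more genes detected and a mitochondrial share of UMIs below 20%. That gave 6188 cells out of 6752 barcodes, with 3187 in library 1 and 3001 in library 2. The mice carried a CycB1-GFP reporter, in which green fluorescent protein is tied to Cyclin B1, a protein that accumulates before mitosis. Epithelium was peeled from Dispase-treated corneas, dissociated with trypsin and sorted. The sort kept live cells with GFP, and no unsorted or GFP-negative cells were analysed here. The labels give 1 genotype and 1 group of 2 replicates, with no age, no treatment and no word on whether the replicates came from separate animals. In the main fits library was a block, which sets aside differences in level between libraries. Their p-values therefore measure how far group differences vary between these 2 libraries only. They do not measure the spread of levels between libraries. Library numbers come from the barcodes and are not linked to the labelled replicate numbers.

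Glycoprotein hormones are secreted dimers of an alpha and a beta subunit. Thyrotropin, lutropin and follitropin share the alpha subunit encoded by Cga and differ in the beta subunit. Thyrostimulin pairs the products of Gpha2 and Gphb5 instead, and it activates the thyrotropin receptor, Tshr, a receptor that couples to Gs and raises cyclic AMP. In mouse cornea Gpha2 is a widely used marker of the limbus, the rim between cornea and conjunctiva where the epithelial stem cells lie. Krt15 marks that rim and the basal cells near it, Krt12 is the keratin of the corneal epithelium proper, and Krt4 and Krt13 are keratins of the conjunctiva.

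Gpha2 (ENSMUSG00000024784) lies on the plus strand at chr19:6226380-6227768 and Gphb5 (ENSMUSG00000048982) on the minus strand at chr12:75411722-75416781 in GRCm38. The first annotated transcript of Gpha2 has 4 exons and that of Gphb5 has 3. The last 4 bases of Gpha2 overlap the 3′ end of Ppp2r5b, a phosphatase subunit gene on the opposite strand. The sequences that end at the base before the annotated starts are shown because the levels of both genes changed in the same direction along the keratin balance. They are from RefSeq, build GRCm38.p6, printed 5′ to 3′ on the strand of the gene, and capitals mark the motif matches described next.
Gpha2, chr19:6226151-6226379, plus strand: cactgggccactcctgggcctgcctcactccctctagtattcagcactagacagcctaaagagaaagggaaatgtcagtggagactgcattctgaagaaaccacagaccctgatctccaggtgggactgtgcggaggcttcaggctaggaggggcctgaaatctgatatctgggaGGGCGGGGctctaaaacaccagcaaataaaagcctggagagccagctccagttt
Gphb5, chr12:75416782-75417031, minus strand: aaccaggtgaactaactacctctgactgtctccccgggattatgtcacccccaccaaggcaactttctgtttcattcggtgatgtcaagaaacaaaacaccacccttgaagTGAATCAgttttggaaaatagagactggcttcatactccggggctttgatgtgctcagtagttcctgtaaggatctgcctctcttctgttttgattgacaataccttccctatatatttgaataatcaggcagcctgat
Both strands were searched for an AP-1 motif (TGANTCA), a GC box (GGGCGG), a KLF motif (CCNCNCCC), a TEAD motif (GGAATG), a CRE (the cyclic AMP response element TGACGTCA), a SOX motif (AACAATG) and a TATA box (TATAAA). The Gpha2 window held 1 GC box, which overlapped a KLF match on the other strand in GGGCGGGG at position 176 from its 5′ end. The Gphb5 window held 1 AP-1 match, TGAATCA, at position 112. Among 32851 promoters searched over 250 bases each, 32.7% held the GC box, 45.9% the KLF motif and 6.75% the AP-1 motif. The other motifs had no match in either window, and these matches are descriptions of letters, not of bound sites.

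Over all kept cells, 10119 Gpha2 UMIs were found in 2293 cells and 835 Gphb5 UMIs in 349 cells. The libraries had similar depth, with a median of 5571 UMIs per kept cell in library 1 and 5886 in library 2, and shared 5 barcode sequences. Cells were placed by their Krt12 share, the UMIs of Krt12 divided by those of Krt12 and Krt15, with at least 5 UMIs of the pair required. The low class (share under 0.4) held 663 cells of library 1 and 959 of library 2, the middle class (0.4 to 0.8) 161 and 164, and the high class (above 0.8) 2304 and 1821. The low class was thus 20.8% of library 1 and 32.0% of library 2. All but 59 and 57 kept cells reached the 5 UMIs of these corneal epithelial keratins. Krt12, Krt15 and the class sizes set the classes and are not results.

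Gpha2 RNA was concentrated in cells with more Krt15 than Krt12. In the low class it stood at 687 CPM (the usual depth-scaled count, a group's UMIs of the gene relative to all its UMIs; 95% exact Poisson interval 660 to 715) in library 1 and 1023 (995 to 1051) in library 2. In the middle class the level was 357 CPM (324 to 393) and 514 CPM (473 to 557). In the high class it was 39.7 CPM (36.5 to 43.2) and 66.8 CPM (62.1 to 71.7). The 3 classes kept this order in both libraries with no overlap of their intervals, which cover counting error only. Gpha2 was 16-fold higher in the low than in the high class (log2 fold change 4.00, SE 0.09, edgeR quasi-likelihood test with library as a block, adjusted p = 8.45e-24). The change was 4.07 in library 1 and 3.93 in library 2. In that comparison 16.9% of the 11140 genes tested were higher and 15.6% lower at an adjusted p under 0.05, so the call itself is common, while the size ranked 127 from the top.

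Gphb5 followed the same order at lower counts. In the low class its level was 35.5 CPM (29.6 to 42.2) in library 1 and 123 CPM (114 to 133) in library 2. The middle class had 9.31 CPM (4.65 to 16.7) and 28.3 CPM (19.4 to 40.0), and the high class 0.939 CPM (0.50 to 1.61) and 2.17 CPM (1.40 to 3.20). Gphb5 was 48.4-fold higher in the low than in the high class (log2 fold change 5.60, SE 0.19, adjusted p = 1.17e-19, edgeR), with 5.15 in library 1 and 5.80 in library 2, and ranked 45 from the top. With class limits of 0.2 and 0.9 the Gphb5 difference was 6.55, and without the highest 3% of doublet scores it was 6.52. Its size thus depended on both settings, while its direction and call did not. The scores come from a doublet caller that is not taken as having worked here, so that setting is no check on doublets. Both genes were also higher in the middle than in the high class, Gpha2 by 3.03 (adjusted p = 4.98e-20) and Gphb5 by 3.54 (adjusted p = 6.73e-09) on the log2 scale in edgeR, where 4.15% of genes were higher. With limits of 0.2 and 0.9 that Gphb5 step was 5.13. Leaving out the highest 3% of doublet scores took the middle class to 141 cells in library 1 and 125 in library 2. The low class went to 655 and 949 cells and the high class to 2236 and 1780, so high scores were most common in the middle class. The steps from high to middle were then 3.12 for Gpha2 and 4.07 for Gphb5. The part of doublets in the middle level was not tested. From the middle to the low class Gpha2 rose by 0.97 (adjusted p = 3.76e-09) and Gphb5 by 2.06 (adjusted p = 5.19e-08) on the log2 scale in edgeR, where 2.62% of genes were higher. Without the library block the adjusted p of these steps rose to 0.340 for Gpha2 from middle to low, 0.578 for Gphb5 from middle to low and 0.398 for Gphb5 from high to middle, with nearly the same sizes.

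**Figure D1:**
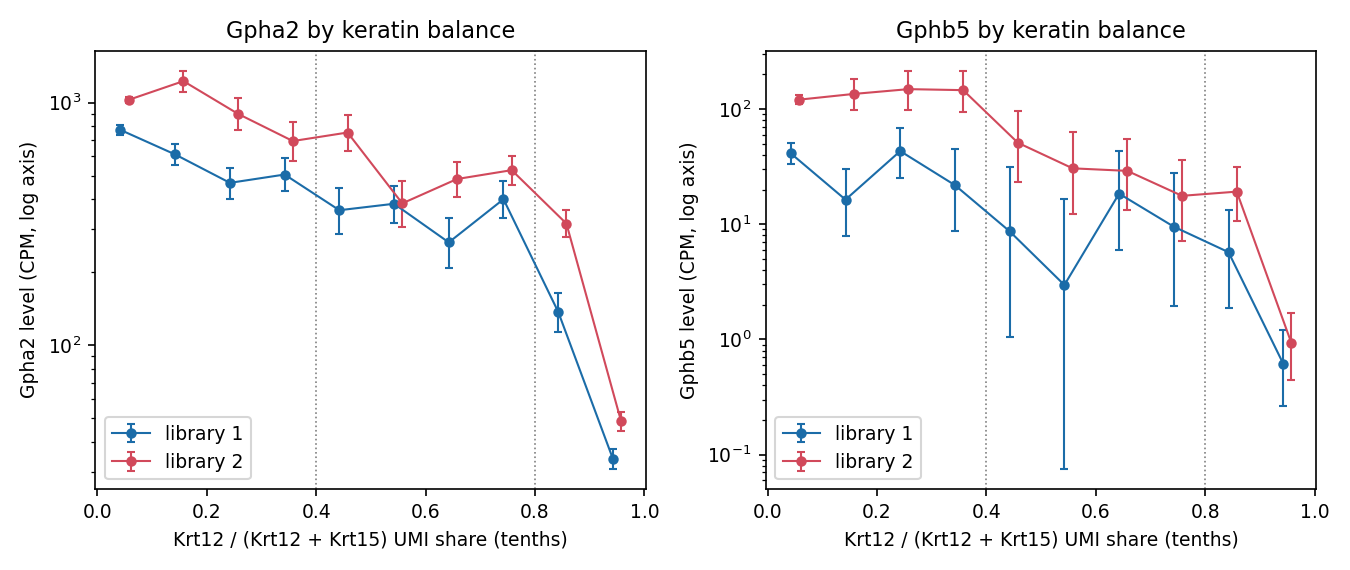
Level of Gpha2 (left) and Gphb5 (right) in CPM on a log axis, against the Krt12 share in bins of width 0.1, with blue points for library 1 and red points for library 2 and bars for 95% exact Poisson intervals. Dotted lines mark the class limits of 0.4 and 0.8, and the steepest fall of Gpha2 lies at shares above 0.8.

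Split into bins of the Krt12 share of width 0.1, the libraries differed in the shape of the decline. In library 1 Gpha2 was 771 CPM in the lowest bin, 467 CPM between 0.2 and 0.3, 400 CPM between 0.7 and 0.8, 137 CPM between 0.8 and 0.9 and 34.0 CPM in the highest bin. In library 2 it was 1026 CPM in the lowest bin, 1226 CPM between 0.1 and 0.2, 527 CPM between 0.7 and 0.8, 317 CPM between 0.8 and 0.9 and 48.5 CPM in the highest. Gpha2 thus declined slowly up to a share of 0.8 and was low in the most Krt12-rich bin, which holds most cells of the high class. Gphb5 in library 2 stayed between 121 and 149 CPM up to a share of 0.4, had 50.9 CPM (23.3 to 96.7) in the next bin and ended at 0.928 CPM. In library 1 Gphb5 ranged from 16.3 to 43.1 CPM below 0.4, rested on 1 to 5 UMIs per bin between 0.4 and 0.9 and ended at 0.615 CPM. Next to the class limits, over both libraries, the 32 cells with a share of 0.35 to 0.4 had 478 CPM of Gpha2 and the 31 cells from 0.4 to 0.45 had 427 CPM. Gphb5 was 8.77 CPM in the former and 33.7 CPM in the latter, against the order of the classes. Those Gphb5 levels rest on few cells pooled over both libraries and carry no interval, so no reversal is read from them. The 51 cells just under 0.8 had 485 CPM of Gpha2 and 15.9 CPM of Gphb5, and the 105 cells just over it 264 and 9.72 CPM.

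The high-class Gpha2 level was of the size seen in barcodes that failed the cell filter. The 271 and 293 barcodes left out by the cell filter held Gpha2 at 61.6 CPM (33.7 to 103) in library 1 and 64.0 CPM (35.8 to 106) in library 2. The high-class levels of 39.7 and 66.8 CPM lie inside those intervals. Among 17 cells with immune markers, which should lack the gene, 1 cell had 3 Gpha2 UMIs, or 5.88% of cells (exact binomial 95% interval 0.149% to 28.7%) at a median of 1941 UMIs per cell. In the high class 15% of cells of library 1 and 21.2% of library 2 had a Gpha2 UMI at medians of 5784.5 and 6375 UMIs. Thinned to 1900 UMIs each, 5.88% and 8.49% of high-class cells had one, against 57.5% and 69.9% of low-class cells and 9.09% (0.230% to 41.3%) of the 11 immune cells deep enough. The source of the high-class UMIs was not tested, so high-class shares are not read as expression. Even so, 9 high-class cells of library 1 and 32 of library 2 held 5 or more Gpha2 UMIs, up to 21 and 27 in a cell. Gphb5 had 0 UMIs in the left-out barcodes of library 1, 1 UMI in those of library 2 and 0 in the immune cells, an exact upper limit of 19.5% of those 17 cells.

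Within the low class most cells had a Gpha2 UMI and fewer had a Gphb5 UMI. Of low-class cells, 76.2% (72.7% to 79.4%) in library 1 and 83.9% (81.5% to 86.2%) in library 2 had a Gpha2 UMI. The median cell held 2 and 4 Gpha2 UMIs and the highest cell 26 and 41. A Gphb5 UMI was found in 9.80% (7.65% to 12.3%) of low-class cells in library 1 and 24.2% (21.5% to 27.0%) in library 2, with up to 7 and 25 UMIs in a cell. The variance over the mean of UMIs per low-class cell was 4.75 and 5.58 for Gpha2 and 2.70 and 5.13 for Gphb5, at means of 3.74 and 5.37 UMIs for Gpha2 and 0.193 and 0.648 for Gphb5. Gphb5 thus differed from Gpha2 in its count per cell. Such a ratio can rise with the mean, so it does not compare the evenness of genes at unlike means. The tenth of low-class cells with most UMIs of the gene held 36.1% and 32.8% of the Gpha2 UMIs. For Gphb5 it held 100% and 73.4%, a share that a low count per cell also raises. At 1900 UMIs per cell the share with Gphb5 was 5.75% and 14% in the low class and 0.194% and 0.244% in the high class.

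**Figure D2:**
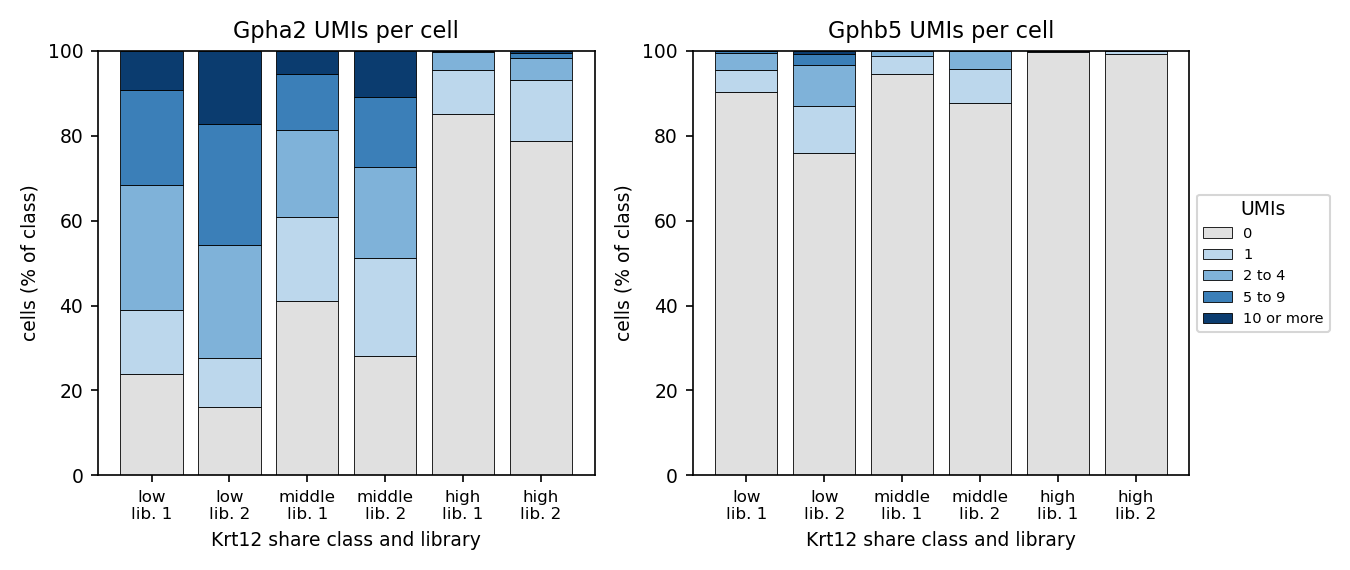
Percent of cells holding 0, 1, 2 to 4, 5 to 9 or 10 or more UMIs of Gpha2 (left) and Gphb5 (right), stacked for each Krt12 share class and library, unthinned. In the low class 9.35% of library 1 cells and 17.2% of library 2 cells held 10 or more Gpha2 UMIs, while most cells of each class had no Gphb5 UMI.

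Library 2 held more of both RNAs in each class. In the low class, the CPM in library 2 over that in library 1 was 1.49 for Gpha2 and 3.48 for Gphb5. In the middle class the ratios were 1.44 and 3.04, and in the high class 1.68 and 2.31. The low class alone gave 19.4 Gpha2 UMIs per Gphb5 UMI (16.2 to 23.3) in library 1 and 8.29 (7.63 to 9.02) in library 2, intervals that do not overlap. UMIs are counted at the 3′ end, once per molecule, so the ratio does not carry transcript length, but the capture of the 2 RNAs was not calibrated. Each library is 1 sample, so no test of the libraries was made, and library 2 also had the larger low class. Over the low class the mean ± SD was 855 ± 237 CPM for Gpha2 and 79.4 ± 62.2 CPM for Gphb5 (n = 2 libraries).

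Conjunctival keratins moved against both genes inside the low class. Low-class cells were split by the UMIs of Krt4 and Krt13 divided by those of Krt4, Krt13 and Krt15, called the conjunctival keratin share. With a share under 0.1 (523 and 734 cells), Gpha2 was 768 CPM in library 1 and 1195 CPM in library 2. With a share of 0.1 to 0.4 (134 and 214 cells) it was 450 and 538 CPM, and above 0.4 (6 and 11 cells) 296 CPM (169 to 480) and 187 CPM (89.7 to 344). Gpha2 was lower in each step in both libraries. From under 0.1 to 0.1 to 0.4 it fell by 0.94 on the log2 scale (SE 0.10, edgeR, adjusted p = 3.56e-20), where 4.51% of 8561 genes were lower. From under 0.1 to above 0.4 it fell by 2.21 (SE 0.23, edgeR, adjusted p = 2.58e-18), where 2.71% were lower, though the group above 0.4 is 17 cells. Gphb5 was 43.7 and 153 CPM under 0.1 and 10.8 and 37.9 CPM at 0.1 to 0.4, and it had 0 UMIs above 0.4 in either library. It fell by 1.97 (SE 0.19, edgeR, adjusted p = 1.48e-22) from under 0.1 to 0.1 to 0.4, the 14th largest fall among the genes tested. With a floor of 3 UMIs over the 17 cells, 27.9 CPM, Gphb5 was at least 3.85-fold lower above 0.4 than the 107 CPM of both libraries under 0.1. Without the library block the middle step had an adjusted p of 0.0865 for Gpha2 and 0.864 for Gphb5.

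Gphb5 was found more often in low-class cells that also held Gpha2. Unthinned, 56 of 505 Gpha2-positive cells of library 1 (11.1%) and 211 of 805 of library 2 (26.2%) had a Gphb5 UMI. Of Gpha2-negative cells, 9 of 158 (5.70%) and 21 of 154 (13.6%) did. With every cell thinned to 1900 UMIs the shares were 6.76% (4.42% to 9.81%) against 4.40% (2.29% to 7.55%) in library 1, and 16.3% (13.4% to 19.4%) against 8.61% (5.54% to 12.6%) in library 2. At matched depth the intervals overlapped in library 1 and not in library 2. Split into 4 equal groups by total UMIs, the share was higher in Gpha2-positive cells in each group of each library, with overlapping intervals in every pair. In the deepest group it was 30.95% (24.8% to 37.7%) against 10% (2.11% to 26.5%) in library 2. In that of library 1 it was 6.02% (2.63% to 11.5%) against 3.03% (0.0767% to 15.8%), the latter from 1 of 33 cells. Read the other way, 86.2% and 90.9% of Gphb5-positive cells held Gpha2, against 75.1% and 81.7% of Gphb5-negative cells. Most cells with the beta subunit RNA therefore also carried the alpha subunit RNA, and most cells with the alpha subunit RNA had no beta subunit UMI.

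The number of Gpha2 UMIs in a cell was also set against Gphb5. In library 2 the share with Gphb5 was 13.6% at 0 Gpha2 UMIs, 18.4% at 1 to 2, 28.3% at 3 to 5, 28.9% at 6 to 9 and 29.7% at 10 or more, so it was higher from 3 UMIs on and level after that. In library 1 it was 5.70%, 13.4%, 7.41%, 11.8% and 12.9% in the same steps, with overlapping intervals and no order. Among low-class cells with a conjunctival keratin share under 0.1, thinned, Gphb5 was in 7.57% (4.91% to 11.1%) of Gpha2-positive and 5.76% (2.91% to 10.1%) of Gpha2-negative cells of library 1, and in 17.4% (14.2% to 20.9%) and 12.1% (7.45% to 18.3%) of library 2. Both pairs of intervals overlapped once the conjunctival keratins were held low.

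**Figure D3:**
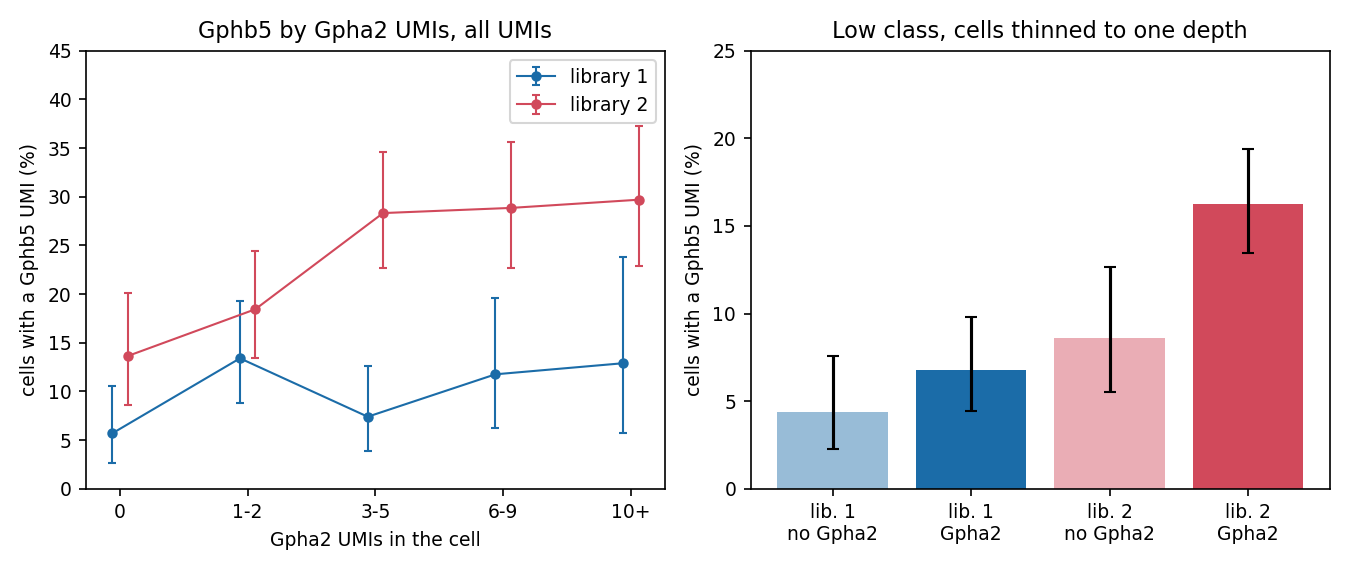
Left, percent of low-class cells with a Gphb5 UMI by the number of Gpha2 UMIs in the cell, unthinned; right, the same percent in cells without and with a Gpha2 UMI after thinning each cell to 1900 UMIs. Bars are exact binomial 95% intervals; library 2 (red) rose from 13.6% to 29.7% on the left and library 1 (blue) stayed between 5.70% and 13.4%.

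Low-class cells with Gpha2 were next set against low-class cells without it, summed per library and matched on total UMIs (505 and 805 positive cells, 95 and 60 negative). Gphb5 had 43.3 CPM in positive and 11.8 CPM in negative cells of library 1, and 130 and 31.6 CPM in library 2. The difference was 1.97 on the log2 scale (SE 0.30, edgeR, adjusted p = 9.94e-09), with 1.76 in library 1 and 1.97 in library 2, where 2.01% of the 9350 genes tested were higher and 3.93% lower. The size depended on which cells were compared: it was 1.36 for cells with at least 3 Gpha2 UMIs, and 1.05 against all 158 and 154 Gpha2-negative cells without depth matching, both past the edgeR threshold. When cells were matched on depth and on the conjunctival keratin share (153 and 146 cells on each side), the difference was 0.42 with an adjusted p of 0.516, and the call was lost. That setting also held more of the negative cells and fewer of the positive ones, so the part of the keratins in the fall cannot be told apart from the change of cells. Without the library block the adjusted p was 0.614. Besides Gpha2, which chose the cells, 187 genes were higher and 367 lower.

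Genes higher in Gpha2-positive cells were named by a rule of size. The rule took the 10 largest called changes each way, among genes averaging 20 CPM or more whose sign did not differ between libraries. They were Dlk2, Jag2, Cdh13, Sema3d, Ctgf, Igfbp7, Gphb5, Wnt10a, Itga3 and Agrn. Dlk2, a membrane protein related to Notch ligands, had 27.9 CPM in positive and 1.97 CPM in negative cells of library 1, and 52.2 and 6.32 CPM in library 2. It was 3.33 higher on the log2 scale (SE 0.56, edgeR, adjusted p = 2.44e-07). The Notch ligand Jag2 was 2.30 higher (63.8 against 21.7 CPM and 82.4 against 3.16 CPM). The negative cells summed to only 517915 UMIs in library 1 and 318110 in library 2. The negative levels of Dlk2, Cdh13, Sema3d, Ctgf, Itga3 and Agrn were at most 12.6 CPM in each library. Those of Jag2 and Igfbp7 were at most 12.6 CPM in library 2. All these levels therefore rested on very few UMIs. Over the alternative settings that kept both libraries, Dlk2 ranged from 1.30 to 3.45 on the log2 scale. The lowest values over those settings were 0.11 for Itga3, 0.24 for Sema3d, 0.46 for Jag2 and 0.54 for Agrn. They were 0.82 for Wnt10a, 1.05 for Cdh13, 1.47 for Ctgf and 1.69 for Igfbp7. The Wnt ligand Wnt10a was 1.97 higher (104 against 25.6 CPM and 131 against 34.7 CPM). Igfbp7, a secreted protein that binds insulin-like growth factors, was 2.07 higher, and Ctgf, a matricellular protein, 2.20. The cadherin Cdh13, the semaphorin Sema3d, the integrin chain Itga3 and the basement membrane proteoglycan Agrn were 2.29, 2.21, 1.85 and 1.76 higher. All 9 passed the edgeR threshold, and all but Sema3d (0.79, adjusted p = 0.239) still did when cells were also matched on the conjunctival keratin share. In DESeq2 only Igfbp7 and Wnt10a of these 9 kept their calls, and without the library block 18 of the 19 genes named in both directions lost theirs.

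The 10 genes that fell furthest in Gpha2-positive cells were Psca, Nccrp1, Arg1, Akr1b7, Krt6b, Ifit1bl1, Gm9573, Muc4, Prss27 and Clic3. Psca, a lipid-anchored surface protein, had 0.367 CPM in positive and 39.5 CPM in negative cells of library 1, and 0.908 and 171 CPM in library 2, and fell by 7.29 on the log2 scale (SE 0.45, edgeR, adjusted p = 3.48e-56). Krt6b, a keratin of stratified epithelia under stress, fell by 2.84 (84.7 against 545 CPM and 158 against 1222 CPM). The membrane mucin Muc4 fell (log2 fold change −2.72), as did Arg1, which splits arginine (−2.89). Of the lowest genes, Prss27 (−1.05, adjusted p = 0.0968 in edgeR) lost its call when the conjunctival keratins were matched and the other 9 kept theirs.

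**Figure D4:**
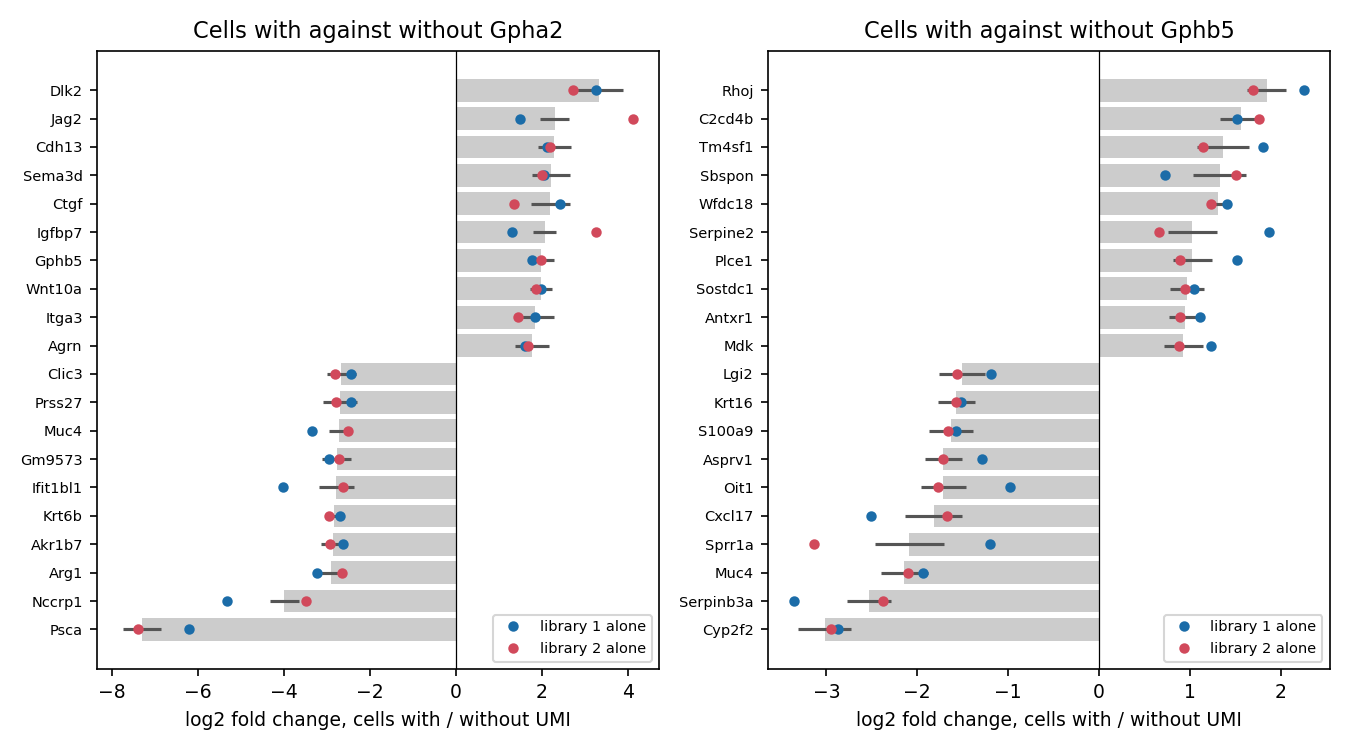
Log2 fold change of the 10 genes per direction named by size in low-class cells with against without a Gpha2 UMI (left) and a Gphb5 UMI (right), matched on total UMIs. Grey bars are the edgeR values with their SE, and blue and red points are library 1 and library 2 alone; each named gene has the same sign in both libraries.

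Of 6 conjunctival markers, 5 were lower in Gpha2-positive cells: Krt13 (−2.10), Krt19 (−1.98), Krt4 (−1.49), Muc4 (−2.72) and Krt8 (−0.84 on the log2 scale in edgeR; median of the list −1.74, of all genes 0.02). Krt8 went the other way in library 1 alone, at 0.32. Summed, the 6 markers had 806 CPM in positive and 1987 CPM in negative cells of library 1, and 1490 and 5948 CPM in library 2. The summed markers of immune cells, melanocytes, keratocytes or fibroblasts and endothelial cells were at most 1.83 CPM in any group, and none of those lists had more than 8 UMIs in one. The part of the conjunctival markers in the other calls was tested only by matching on Krt4 and Krt13, as given above. Of 7 corneal markers 2 were lower, Krt12 (−0.49) and Upk1b (−0.74), and none higher. Krt12 had helped to set the low class, so its fall is not read as a result.

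Limbal and cell cycle genes gave a mixed picture in the same comparison, where 2.01% of all genes were higher and 3.93% lower. Of 14 limbal stem cell genes tested, of 17 listed, 2 were higher, Mt2 (0.63, adjusted p = 2.84e-05) and the epithelial regulator Trp63 (0.56, adjusted p = 0.0277), and 2 lower, Krt15 (−0.70, adjusted p = 5.69e-06) and Cebpd (−0.55, adjusted p = 0.0452), all in edgeR. Krt15 had helped to set the low class, so its fall is not read as a result. Of 6 CDK inhibitors tested 2 were lower, Cdkn1a (−1.11, adjusted p = 8.11e-06) and Cdkn2b (−1.81, adjusted p = 1.47e-05). Of 12 cycle markers 2 were higher, the D-type cyclin Ccnd2 by 1.44 (adjusted p = 6.80e-11) and the topoisomerase Top2a by 0.36 (adjusted p = 0.0275), and none lower. Matched on the conjunctival keratin share too, Ccnd2 (1.41), Cdkn1a (−0.99), Mt2 (0.49) and Krt15 (−0.54) kept their edgeR calls, and Trp63, Cebpd, Cdkn2b and Top2a did not (adjusted p between 0.0804 and 0.307). In DESeq2, of these 8 genes, Krt15 and Ccnd2 passed.

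Gphb5-positive cells were compared in the same way, with 65 and 232 positive against 195 and 504 negative low-class cells. Gpha2 had 915 CPM in positive and 780 CPM in negative cells of library 1, and 1181 and 973 CPM in library 2, after scaling. The difference of 0.26 (SE 0.09, edgeR, adjusted p = 0.132) did not pass the threshold, in a comparison where 0.946% of 8456 genes were higher and 1.32% lower. It passed with an adjusted p of 0.0446 when 20 keratin UMIs were required and 0.0232 without the highest doublet scores. Apart from Gphb5, 79 genes were higher and 112 lower. Both counts depended on the matching and the tool.

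The genes highest in Gphb5-positive cells were Rhoj, C2cd4b, Tm4sf1, Sbspon, Wfdc18, Serpine2, Plce1, Sostdc1, Antxr1 and Mdk. Rhoj, a small GTPase, was 1.84 higher (SE 0.21, edgeR, adjusted p = 2.92e-15), with 103 against 21.3 CPM in library 1 and 73.0 against 22.5 CPM in library 2. Wfdc18, a whey acidic protein family member, was by far the most abundant of them at 4563 against 1725 CPM and 5961 against 2537 CPM, a difference of 1.31. Sostdc1, a secreted antagonist of BMP and Wnt signals, was 0.96 higher, and the heparin-binding growth factor Mdk 0.93. The lowest were Cyp2f2, Serpinb3a, Muc4, Sprr1a, Cxcl17, Oit1, Asprv1, S100a9, Krt16 and Lgi2, with falls of up to 3.02 on the log2 scale. Sprr1a and Krt16 belong to cornification and stressed epithelium. Gphb5-positive cells also held less conjunctival marker RNA: Krt13 (−1.30), Krt4 (−1.08), Krt19 (−0.95) and Muc4 (−2.14) fell, 4 of 6 markers, and the 6 summed to 677 and 1123 CPM in positive and 900 and 2381 CPM in negative cells. With those keratins matched, Rhoj (1.69), C2cd4b (1.11), Wfdc18 (1.42), Sostdc1 (0.83) and Mdk (0.99) kept their edgeR calls and the other 5 higher genes did not, nor did the cycle marker Mki67. Of the lower genes Asprv1 and Krt16 lost theirs, Cyp2f2 had no value, and the other 7 kept theirs. Without the library block 19 of the 20 named genes lost their call. In library 1 alone the values of 14 of the 20 lay more than the SD of the 2 single-library values from the fit. In library 2 alone 2 of the 20 did. Library 2 gave 232 positive cells and library 1 gave 65, so the fit weighs library 2 more and these counts do not grade the calls. Of the 14 limbal genes tested none passed. Of 6 CDK inhibitors Cdkn1b was higher (0.63, adjusted p = 0.000658), and of 12 cycle markers Mki67 was higher (0.31, adjusted p = 0.0402), both in edgeR. Of 7 corneal markers Krt12 (−0.39) and Aldh3a1 (−0.36) were lower in edgeR, and Krt12, which helped to set the class, is not read as a result.

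Low-class cells were then split by the cycle phase called from S and G2/M gene lists. Few cells were called G1: 30 and 95, against 123 and 151 in S and 510 and 713 in G2/M. Gpha2 had 759 CPM (695 to 827) in S and 675 CPM (645 to 706) in G2/M in library 1, and 1426 CPM (1340 to 1517) and 942 CPM (912 to 973) in library 2. It was lower in G2/M than in S (−0.44, SE 0.10, edgeR, adjusted p = 0.00264), with −0.24 in library 1 and −0.64 in library 2, where 5.19% of 7686 genes were lower. Gphb5 had 30.9 CPM (19.2 to 47.3) in S and 38.3 CPM (31.4 to 46.2) in G2/M in library 1, and 70.2 CPM (52.1 to 92.6) and 138 CPM (127 to 151) in library 2. It was higher in G2/M by 0.73 (SE 0.22, edgeR, adjusted p = 0.0292), where 4.5% of genes were higher, but by 0.92 in library 2 and 0.21 in library 1, where the intervals overlapped. In DESeq2 neither phase difference passed (adjusted p = 0.465 for Gpha2 and 1.00 for Gphb5). The libraries therefore agree on the signs and differ in the sizes.

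In cells called G1, Gpha2 had 580 CPM (459 to 724) in library 1 and 1107 CPM (1003 to 1220) in library 2, and against S the change of −0.29 did not pass (edgeR, adjusted p = 0.0906), where 9.38% of genes were lower. Gphb5 had 0 UMIs in the 30 G1 cells of library 1, which allows up to 27.4 CPM, and 64.7 CPM (41.4 to 96.2) in library 2, with no call against S (−0.38, edgeR, adjusted p = 0.561). Both RNAs were thus measured in every phase of library 2.

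**Figure D5:**
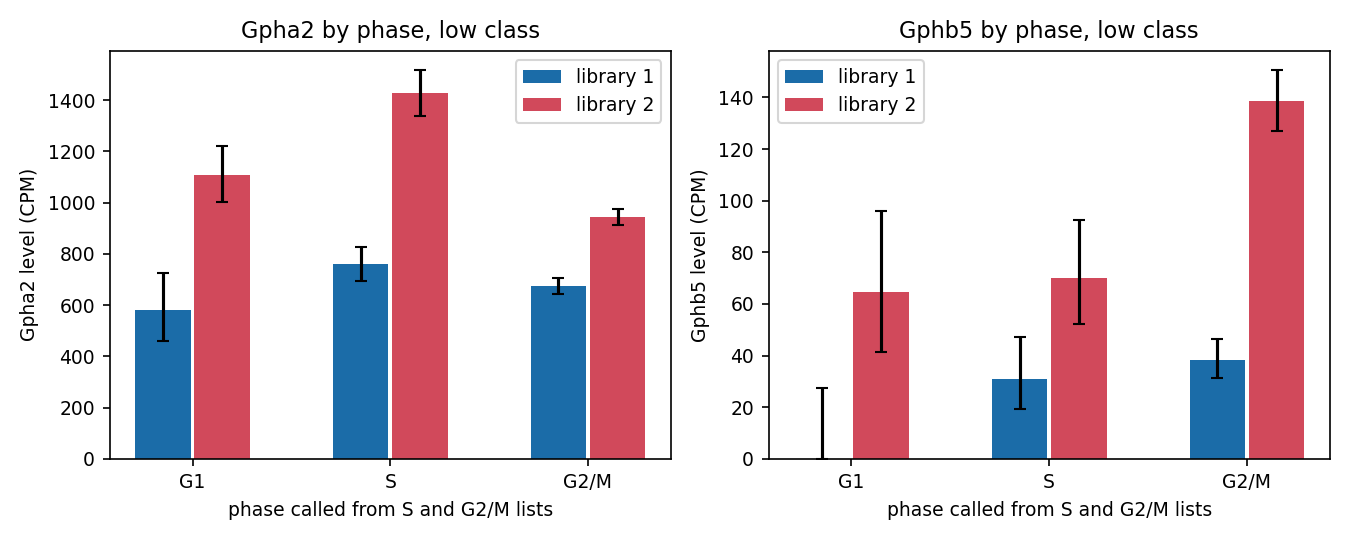
Level of Gpha2 (left) and Gphb5 (right) in CPM in low-class cells called G1, S or G2/M, with blue bars for library 1, red bars for library 2 and 95% exact Poisson intervals. Gpha2 is highest in S in both libraries, and Gphb5 in library 2 is 138 CPM in G2/M against 70.2 CPM in S.

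Seen from the cells, Gpha2-positive cells were called S more often. Thinned to 1900 UMIs, 26.5% (22.1% to 31.3%) of Gpha2-positive and 17.2% (12.9% to 22.2%) of Gpha2-negative low-class cells of library 1 were called S, and 21.7% (18.6% to 25.2%) and 13.9% (9.95% to 18.6%) in library 2, with intervals that met at their edges. G1 calls were 4.86% against 10.3% and 10.1% against 14.2%, and G2/M calls 68.6% against 72.5% and 68.1% against 71.9%. A Mki67 UMI was found in 68.6% of positive and 63.0% of negative cells in library 1, and in 71.0% and 73.4% in library 2, so the order differed between libraries. For Gphb5, Mki67 was found in 81.1% of the 37 positive and 65.3% of the 606 negative cells of library 1 and in 80.6% and 70.3% in library 2, and Top2a in 86.5% against 76.4% and 86.3% against 74.6%. Free RNA can also give such UMIs, its part was not tested, and no cycling is read from phase calls alone. By class, Mki67 was in 66.3% and 71.7% of low-class and 68.5% and 69.5% of high-class cells at the same depth.

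RNA of the subunits of the other glycoprotein hormones, and of the thyrostimulin receptor, was close to absent. Cga, Tshb, Fshb, Lhcgr, Fshr and Rxfp1 had 0 UMIs in the kept cells, Lhb and Tshr 2 each, and Lgr5, Lgr6 and Rxfp2 1 each. So RNA of the known thyrostimulin receptor was seen in 2 of 6188 cells. Lgr4, a related receptor that binds R-spondins, was the exception with 1010 UMIs in 899 cells. Its level was 41.3 CPM (34.9 to 48.5) and 50.3 CPM (44.3 to 56.9) in the low class and 21.6 CPM (19.2 to 24.2) and 19.9 CPM (17.4 to 22.7) in the high class, a difference of 1.11 (edgeR, adjusted p = 2.47e-07).

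Genes of the Gs and cyclic AMP pathway, which acts after the receptor, gave no call by hormone RNA. None of the 14 genes tested in the Gpha2 comparison and none of the 12 in the Gphb5 comparison passed in edgeR, with list medians of 0.15 and 0.07 against 0.02 and −0.01 for all genes. A missed threshold in these small fits does not show that the levels were equal. Between the low and high classes 7 of 19 were higher and 2 lower (median 0.23, all genes −0.01), where 16.9% of all genes were higher and 15.6% lower. The adenylate cyclases Adcy3 (1.53) and Adcy6 (1.23), the phosphodiesterases Pde4d (1.45) and Pde7a (0.67), the kinase subunits Prkaca (0.47) and Prkar2a (0.34) and the transcription factor Creb1 (0.51) were higher in the low class. Another phosphodiesterase, Pde4a (−2.97), and the cyclic AMP sensor Rapgef3 (−3.85) were lower. Gnas, the Gs alpha subunit itself, was 0.08 (adjusted p = 0.455 in edgeR), at 638 and 653 CPM in the low and 602 and 621 CPM in the high class.

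Over the 20 sums of library and Krt12 share bin, the genes whose log2 levels were most like Gpha2 were Apoe (Pearson r = 0.97), Ccdc3 (0.96), Tmem176a (0.96), Krt15 (0.96), Tmem176b (0.95), Igfbp7 (0.95), Cd63 (0.95) and Tppp3 (0.95), of 5824 ranked. Krt15 is used to make the bins. For Gphb5 they were Cd63 (0.93), Arl4c (0.93), Tmem176b (0.90), Barx2 (0.89), Ptma (0.89), Tmem176a (0.89), Ly6e (0.89) and Apoe (0.89). Gpha2 and Gphb5 had r = 0.87 with each other, 0.80 in library 1 and 0.94 in library 2. The sums of a library share its depth and free RNA, so these values describe these libraries only.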

How the data were processed

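RNA of live GFP-positive corneal epithelial cells was measured with 10x Genomics 3′ v3 chemistry in 2 libraries. The deposited matrix holds whole-number UMI counts per gene and barcode, not normalized, with 19001107 UMIs in 3458 barcodes of library 1 and 18030874 in 3294 of library 2. The submitters' processing notes name Cell Ranger 3.1.0, Seurat 5.0.0 and GRCm38 (mm10), without roles.

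Of the barcodes, 475 had under 500 genes and 311 had 20% or more mitochondrial UMIs. Scrublet marked 5 of 6188 cells (0.0808%), too few for it to be taken as having worked, so none was removed and doublets remain. Counts were summed per library and cell group and tested with edgeR 4.0.16 in R 4.3.3 (quasi-likelihood, robust, TMM, filterByExpr, library as a block, Benjamini-Hochberg over all genes, threshold 0.05). Library is the block since sums from the same library share their cells' source. DESeq2 1.42.0 was an alternative. Negative cells were drawn across the depth deciles of positive cells. Levels in CPM use all UMIs of a group. The CPM of genes in positive and negative cells and of the cyclic AMP genes come from edgeR and carry TMM scaling. Each fit was tested on simulated data. Thinning drew 1900 UMIs per cell (10th percentile) without replacement. Phases were called with scanpy 1.11.5 from 43 S and 54 G2/M genes. Intervals cover counting error at 95%. Immune cells had at least 3 immune markers and 5 of their UMIs. Likeness used log2(CPM + 1) centred within library.

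Members, lists (hormone family, Gs and cAMP, limbal, CDK inhibitors, cycle, cell type markers) and classes were chosen with earlier results of these data known. The Gphb5 comparison, the 0.1 to 0.4 conjunctival contrast and the neighbouring genes were added after seeing data. Gene starts and exons are from GENCODE, promoters from RefSeq. Other alternatives were class limits, cell filters, leaving out a library, and matching.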

Additional observations from a re-analysis of the deposited data

Results flagged for a closer look

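Signal was present outside the classes that the comparisons use. Cells with under 5 Krt12 and Krt15 UMIs, 59 and 57 in number and shallow at medians of 1573 and 1331 UMIs, held Gpha2 at 839 CPM (692 to 1008) and 615 CPM (462 to 803), with a UMI in 35.6% and 31.6% of cells. In library 1 they also held Gphb5 at 36.8 CPM (11.95 to 85.9), from 5 UMIs in 2 cells, and in library 2 they had 0. Of these cells 16 carried immune markers. Barcodes left out by the cell filter held 14 and 15 Gpha2 UMIs, or 61.6 and 64.0 CPM.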

How the results depend on the processing

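With library as the replicate block taken out, adjusted p-values in edgeR missed 0.05 for Gphb5 from high to middle (3.58), Gpha2 and Gphb5 from middle to low (0.97 and 2.10), Gphb5 by Gpha2 (2.14), Gpha2 and Gphb5 by conjunctival keratin share (−0.95 and −1.90) and both genes in G2/M against S (−0.48 and 0.76); the low against high differences kept theirs (at most 0.0268). The cause was not tested. DESeq2 gave −0.44 and 0.61 for the phases, with no call. Matching on conjunctival keratins gave 0.42 for Gphb5. Requiring 20 keratin UMIs gave Gpha2 −0.87 in G1 against S (adjusted p = 1.70e-07) and 0.30 by Gphb5, and leaving out the highest 3% of doublet scores gave 0.29. Of the 187 higher and 367 lower genes by Gpha2, DESeq2 called 17 and 85, the fit without the block 0 and 2 (370 and 432 at an unadjusted p under 0.05), the fit unmatched on depth 301 higher and the fit matched on conjunctival keratins 206 lower. For Gphb5, against 79 and 112, the counts were 5 and 14 with DESeq2, 1 and 1 without the block, 21 and 53 under a 10% mitochondrial limit, 39 and 65 with conjunctival keratins matched, and 52 higher with no filter on low counts.

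With 1 library left out, Gphb5 ranged from 1.86 to 2.11 (low against middle), 1.76 to 1.97 (by Gpha2), −1.96 to −1.92 (conjunctival share), 0.21 to 0.92 (G2/M against S) and −3.08 to −0.028 (G1 against S), and Gpha2 in G1 against S from −0.36 to −0.29. Over all kept cells Cebpd became 0.21 and Top2a −0.034. Krt8 was 0.32 in library 1 alone and −1.41 in library 2 alone. Of the remaining settings for single genes by Gpha2, 294 counted as the same and 84 lost the call. Those counted as the same kept direction and call. Settings that left out a library have no call, and counted as the same if the value moved by less than the SD of both libraries.

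Shares averaged over libraries depended on depth. At 1900 UMIs, 3900 UMIs and unthinned, Gpha2 was in 63.7%, 74.8% and 80.1% of low-class and 7.19%, 12.7% and 18.1% of high-class cells. Gphb5 was in 9.86% of low-class cells at 1900 and 17% unthinned, and in 0.219%, 0.262% and 0.531% of high-class cells. Gphb5 was in 11.5% of Gpha2-positive and 6.50% of Gpha2-negative cells at 1900, and 18.7% and 9.67% unthinned. Gpha2-positive cells were 7.50% G1 at 1900 and 3.26% at 3900, S in 24.1%, 19.7% and 18.9%, and G2/M in 68.4%, 77.1% and 75.6%; Gpha2-negative cells were S in 15.5%, 9.97% and 9.90%, and G2/M in 72.2%, 78.0% and 75.3%.

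With 2 libraries, 4 to 6 sums per comparison left 1 or 2 residual degrees of freedom.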

Other observations

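Neighbouring genes were read from the same comparisons, a step chosen after Rhoj had been seen among the genes of Gphb5-positive cells. Rhoj is the gene next to Gphb5 on chromosome 12, on the plus strand with its 3′ end 10265 bases from that of Gphb5. It had 92 and 175 UMIs in the low class and 10 and 6 in the high class of libraries 1 and 2, a log2 difference of 5.49 (edgeR, adjusted p = 2.13e-15). Of the other genes within 250 kb of Gphb5, Ppp2r5e (0.14, adjusted p = 0.899) and Wdr89 (−0.09, adjusted p = 0.951) did not pass between Gphb5-positive and Gphb5-negative cells. On chromosome 19, Majin, a meiotic telomere gene that ends 2154 bases before Gpha2 on the same strand, had 24 and 39 UMIs in Gpha2-positive and 0 in the matched Gpha2-negative cells (edgeR, adjusted p = 0.0174). That call rested on few UMIs and was lost with at least 3 Gpha2 UMIs (adjusted p = 0.138), without the library block (0.386), over all kept cells (0.0647) and under a 10% mitochondrial limit (0.128). Majin was 1.80 higher in the low than in the high class (adjusted p = 0.000102 in edgeR; 7.20 and 7.75 against 2.46 and 1.73 CPM). Among 28 genes within 250 kb of Gpha2, 19 were tested between Gpha2-positive and Gpha2-negative cells. Majin was the 1 gene called higher, with 0 lower, where 2.01% of all genes were higher and 3.93% lower. Ppp2r5b, which overlaps the end of Gpha2, did not pass there (−0.76, adjusted p = 0.119). It was lower in the low than in the high class (−0.67, edgeR, adjusted p = 0.00016), opposite to Gpha2. Of 20 neighbours of Gpha2 tested between those classes 2 were higher and 3 lower, where 16.9% of all genes were higher and 15.6% lower.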
